A study of Mus musculus with 12 samples.

Results

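A set of 10 genes of the skeletal muscle programme was followed through RNA sequencing of mouse bone and marrow stromal cell preparations, to see how much muscle transcript each library carried. They were chosen by name, as Acta1, Myod1, Myog, Myf5, Pax7, Myh3, Ttn, Tnnt1, Chrna1 and Mymk, and 10 of 10 are entries among the 53819 of the deposited count table. All 12 libraries came from wild-type mice, whose strain and age the labels do not give, with 3 libraries in each of 4 groups. BM nonsorted were hind-limb and pelvic marrow cells grown on collagen I in ascorbate-free medium under hypoxia and taken after the first passage. BM sorted were the same kind of culture after flow sorting, which kept cells positive for Sca-1 and CD51 and negative for F4/80, Ly6C, CD45 and CD31. BAC nondepleted were bone-associated cells (BAC) released from hind-limb bone fragments by collagenase I, and BAC depleted were such cells after magnetic removal of those bearing CD45, Ly6C or F4/80. For the BAC the labels state no passage.

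Skeletal muscle forms from precursors in a fixed order. Satellite cells, the resident stem cells of muscle, carry the transcription factor Pax7. Activated satellite cells express Myf5 and Myod1, then Myog, and the cells leave the cycle, fuse through the membrane protein myomaker (encoded by Mymk) and assemble sarcomeres. Young myotubes use the embryonic myosin heavy chain Myh3, and adult fibres replace it with other myosins. Hind-limb bones are wrapped in skeletal muscle.

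The myogenic factors Myod1 and Myog bind E-boxes, a motif spelled CANNTG that reads the same on both strands. The 250 bases before the annotated start of 4 members are shown because 3 of them (Myog, Chrna1 and Myh3) had similar profiles over the libraries and Acta1 did not. They are from RefSeq on build GRCm38.p6, matched by symbol, which is not the build of the counts, and capitals mark each E-box. Myog lies on the plus strand at chr1:134289754-134290003, Chrna1 on the minus strand at chr2:73580339-73580588, Myh3 on the plus strand at chr11:67078050-67078299 and Acta1 on the minus strand at chr8:123894776-123895025.
Myog: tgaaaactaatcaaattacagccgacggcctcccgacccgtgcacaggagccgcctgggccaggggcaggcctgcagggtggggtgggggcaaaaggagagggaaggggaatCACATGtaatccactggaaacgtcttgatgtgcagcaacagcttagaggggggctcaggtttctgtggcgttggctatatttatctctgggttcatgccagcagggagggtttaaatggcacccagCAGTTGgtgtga
Chrna1: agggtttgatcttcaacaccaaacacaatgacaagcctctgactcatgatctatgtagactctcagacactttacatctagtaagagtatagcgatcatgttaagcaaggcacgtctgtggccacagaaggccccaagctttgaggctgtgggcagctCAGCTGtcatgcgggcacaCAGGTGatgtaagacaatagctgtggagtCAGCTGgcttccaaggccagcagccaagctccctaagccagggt
Myh3: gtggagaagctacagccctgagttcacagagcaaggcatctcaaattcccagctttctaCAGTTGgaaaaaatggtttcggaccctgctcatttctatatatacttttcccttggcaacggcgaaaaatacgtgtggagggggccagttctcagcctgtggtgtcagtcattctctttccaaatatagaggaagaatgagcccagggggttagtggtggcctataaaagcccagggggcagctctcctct
Acta1: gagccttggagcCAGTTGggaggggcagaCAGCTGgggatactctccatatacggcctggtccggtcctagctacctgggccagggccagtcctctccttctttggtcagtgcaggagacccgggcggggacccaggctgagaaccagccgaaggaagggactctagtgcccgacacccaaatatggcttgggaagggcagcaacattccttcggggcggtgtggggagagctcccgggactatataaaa
Promoter entries matched 8 of the 10 members, all but Myod1 and Mymk. At least 1 E-box was found in 6 of the 8, against 66.2% of 32851 promoter windows of the same length. The form CAGCTG, a subset of CANNTG, was in 2 of 8 (Chrna1, at 92 and 44 bases before the start, and Acta1, at 221) and in 13% of all windows. Searched on both strands, a CArG box, the motif of serum response factor, was in 1 of 8 (Acta1, 73 bases before the start) and in 1.47% of all windows. A MEF2 site of the strict form YTAWWWWTAR (Y is C or T, W is A or T, R is A or G) was in 1 of 8 (Ttn) and in 2.92%. The Myog window holds ctatatttat, which differs from that form only in its last base and was not counted, so looser MEF2 sites were missed. The windows of Pax7 and Myf5 held no E-box.

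Libraries held 27937709 to 32164725 counts, so 1 count was worth 0.0293 to 0.0417 CPM, the count scaled to the library size after TMM normalization. One library stood apart in the sex of its source. BAC depleted 1 had 43406 counts of Xist and 0 of the Y-linked gene Ddx3y, the female pattern. The other 11 had at most 16 of Xist and at least 2484 of Ddx3y, the male pattern. The stromal collagen genes Col1a1 and Col1a2 were abundant in every library. Macrophage markers (7 genes) summed to 1675 to 1892 CPM in BM nonsorted and 4160 to 4926 in BAC nondepleted, and to 1.80 to 4.54 in the purified groups. The labels number the libraries and do not say whether they came from separate animals, so p-values measure the spread between these libraries, which may be technical. In bulk RNA, fewer cells of a type and less RNA per cell cannot be told apart.

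Leaving out Acta1, most of the members' transcript sat in a single library. Summed over the 9 members other than Acta1, BM nonsorted 2 held 177 CPM, BM sorted 2 held 18.4, BAC depleted 1 held 18.0 and BM nonsorted 3 held 10.6. The other 8 libraries held 1.37 to 3.66 CPM. With Acta1 the sum was 288 CPM in BM nonsorted 2, 79.1 in BM nonsorted 1, 71.0 in BM sorted 2, 22.9 to 32.2 in the other 3 marrow libraries and 2.13 to 25 in the BAC libraries. Both marrow libraries numbered 2 were the highest of their group, and nothing in the labels says that a number marks a shared culture.

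**Figure D1:**
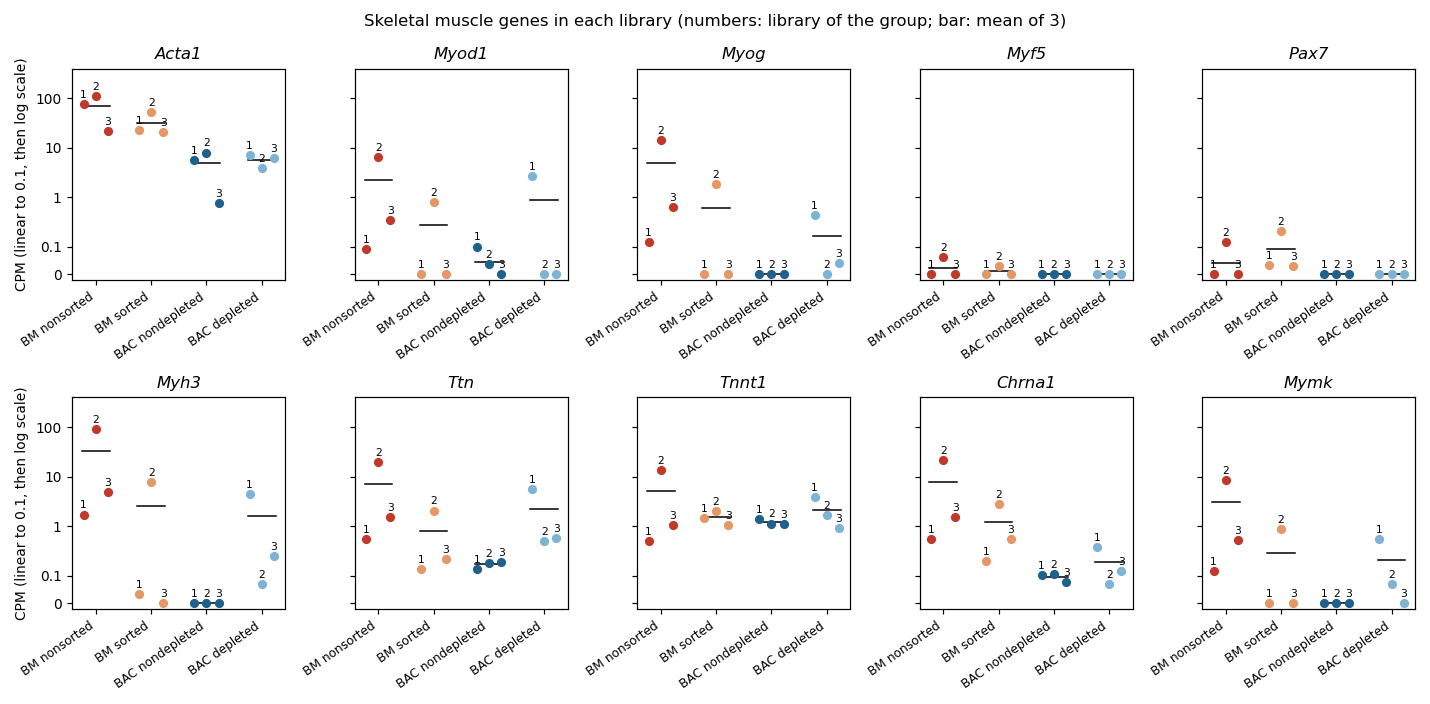
CPM of each member (vertical axis, linear to 0.1 and logarithmic above) in the 12 libraries, by group; points are libraries with their number, and bars are means of 3. BM nonsorted 2 is the highest library for every member except Pax7, which is highest in BM sorted 2 at 7 counts.

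The early members Pax7 and Myf5 were almost absent. Pax7, the satellite cell factor, had 0, 4 and 0 counts in BM nonsorted 1, 2 and 3, and 1, 7 and 1 in BM sorted, with 0 in all 6 BAC libraries. Myf5, the earliest of the myogenic factors here, had 2 counts in BM nonsorted 2, 1 in BM sorted 2 and 0 in the other 10 libraries. A count of 0 allows up to 3 counts, 0.0878 to 0.125 CPM depending on the library, which covers counting error only. These 2 members failed the low-count filter and were not tested.

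The later factors were clearly present in a few libraries. Myod1, the factor that commits cells to muscle, stood at 0.0923, 6.42 and 0.351 CPM in BM nonsorted 1, 2 and 3. Its BM sorted levels were 0, 0.809 and 0 CPM, its BAC nondepleted levels 0.101, 0.0363 and 0, and its BAC depleted levels 2.64, 0 and 0. Its 4 groups overlapped, and 1 library of BAC depleted exceeded every library but BM nonsorted 2. Myog, which starts terminal differentiation, stood at 0.123, 14.2 and 0.644 CPM in BM nonsorted and at 0, 1.86 and 0 in BM sorted. It had 0 counts in all BAC nondepleted libraries and 0.445, 0 and 0.0417 CPM in BAC depleted. BM nonsorted and BAC nondepleted did not overlap for Myog, while the other pairs of groups compared did.

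Mymk, whose product fuses myoblasts, stood at 0.123, 8.39 and 0.527 CPM in BM nonsorted and at 0, 0.869 and 0 in BM sorted. Its counts were 0 in all BAC nondepleted libraries, and BAC depleted held 0.541, 0.0707 and 0 CPM. Thus library 2 led both marrow groups and library 1 led BAC depleted. Chrna1 encodes the alpha subunit of the acetylcholine receptor at the nerve-muscle junction and is transcribed along the whole myotube before innervation. Its level was 0.554, 21.5 and 1.52 CPM in BM nonsorted and 0.201, 2.85 and 0.551 in BM sorted. In BAC nondepleted it was 0.101, 0.109 and 0.0762 CPM, and in BAC depleted 0.382, 0.0707 and 0.125. Every marrow library before sorting exceeded every BAC nondepleted library for this gene, and BAC depleted 1 did not approach BM nonsorted 3 as it did for Myh3.

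Myh3, the embryonic myosin, ran from 0 counts to the second highest level of any member. It stood at 1.72, 93.4 and 4.95 CPM in BM nonsorted, and at 0.0336, 7.70 and 0 in BM sorted. BAC nondepleted had 0 counts in all 3 libraries, and BAC depleted had 4.48, 0.0707 and 0.250 CPM. Ttn, which encodes the giant spring protein titin, stood at 0.554, 19.4 and 1.52 CPM in BM nonsorted and at 0.134, 2.07 and 0.214 in BM sorted. BAC nondepleted stayed between 0.134 and 0.191 CPM, and BAC depleted held 5.72, 0.495 and 0.583, so all 3 depleted libraries exceeded all 3 nondepleted ones. Tnnt1, the troponin T of slow fibres, never fell below 0.492 CPM. Ttn also had counts in every library, with a lowest level of 0.134 CPM, while Myh3 fell to 0. Its level was 0.492, 13.9 and 1.05 CPM in BM nonsorted, 1.48, 2.01 and 1.07 in BM sorted, 1.41, 1.13 and 1.11 in BAC nondepleted, and 3.82, 1.66 and 0.917 in BAC depleted. BM nonsorted 1 was the lowest of all 12 libraries for Tnnt1.

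Acta1, the skeletal muscle alpha-actin, followed another pattern. It stood at 75.4, 111 and 21.7 CPM in BM nonsorted, 23.0, 52.6 and 21.0 in BM sorted, 5.67, 8.03 and 0.762 in BAC nondepleted, and 7, 3.93 and 6.12 in BAC depleted. All 6 marrow libraries exceeded all 6 BAC libraries. BM nonsorted 1 was second only to BM nonsorted 2 for Acta1, although it held less of the 7 other tested members than BM nonsorted 3. In BM nonsorted 1 Acta1 reached 68.3% of its level in BM nonsorted 2 (95% counting interval 64.8% to 71.9%), while the other 7 were at 0.866% to 3.55%. The level of smooth muscle markers beside it is given with the gene lists.

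Within BM nonsorted 2, levels per kilobase of annotated exon compare the genes with one another. The order was Acta1 (72.3 CPM per kb), Myh3 (15.4), Myog (9.50), Tnnt1 (6.31), Mymk (5.55), Chrna1 (4.90), Myod1 (3.45), Ttn (0.166), Myf5 (0.0305) and Pax7 (0.0217). Exon lengths are those of GENCODE M21 on GRCm38 and include all isoforms, which weighs most on Ttn, at 116.83 kb. There is no replicate of this profile, so neighbours in the order, such as Mymk and Chrna1, carry only counting error.

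The profile of BM nonsorted 2 recurred at a lower level in BM sorted 2 and BM nonsorted 3. Relative to BM nonsorted 2, the 7 tested members other than Acta1 stood at 8.24% to 14.5% in BM sorted 2 (median 12.6%) and at 4.53% to 7.86% in BM nonsorted 3 (median 6.28%). Tnnt1 lay in both ranges, but its 1.05 CPM in BM nonsorted 3 was below the 1.11 to 1.41 of BAC nondepleted. In BM sorted 2 it had 2.01 CPM, against 1.48 and 1.07 in BM sorted 1 and 3. Its shares therefore cannot be told apart from the level that every library carried. For Myh3 these shares were 8.24% (7.23% to 9.37%) and 5.30% (4.51% to 6.19%), and for Chrna1 13.3% (10.6% to 16.5%) and 7.09% (5.24% to 9.41%), with 95% intervals that cover counting error only. Acta1 lay far above the range in both, at 47.6% and 19.6%. The macrophage genes in BM sorted 2 stood at 0.00846% (C1qa) to 0.373% (Cd68) of BM nonsorted 2, well below the muscle members, and the stromal gene Col1a1 stood at 124%.

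BAC depleted 1 held the members in proportions other than those of BM nonsorted 2. Its members other than Acta1 ranged from 1.78% (Chrna1) through 3.13% (Myog) and 29.6% (Ttn) to 41.1% (Myod1) of BM nonsorted 2. Myod1 made up 85.6% of the summed Myod1 and Myog counts there (83 of 97, exact Clopper-Pearson interval 77.0% to 91.9%), against 31.1% in BM nonsorted 2 (27.6% to 34.8%) and 30.3% in BM sorted 2 (21.0% to 41.0%). Ttn made up 56.1% of the summed Ttn and Myh3 counts (50.5% to 61.6%), against 17.2% in BM nonsorted 2 (15.9% to 18.5%), and 21.2% to 24.3% in BM sorted 2, BM nonsorted 3 and BM nonsorted 1. The high Ttn share was not limited to that library: it was 87.5% in BAC depleted 2 (14 of 16 counts, 61.7% to 98.4%) and 70.0% in BAC depleted 3 (14 of 20, 45.7% to 88.1%), so all 3 depleted libraries lay above the 4 marrow libraries with at least 10 such counts. Below that number, Ttn also made up most or all of the counts elsewhere. Ttn and Myh3 had 4 and 0, 5 and 0, and 5 and 0 counts in BAC nondepleted 1, 2 and 3. They had 4 and 1 in BM sorted 1, and 7 and 0 in BM sorted 3, so the Ttn share does not set BAC depleted apart from these libraries. The Myod1 share had under 10 counts in the other BAC depleted libraries. BAC depleted 1 is also the only library with the female pattern of Xist and Ddx3y, and the part of its source in the Myod1 share was not tested.

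**Figure D2:**
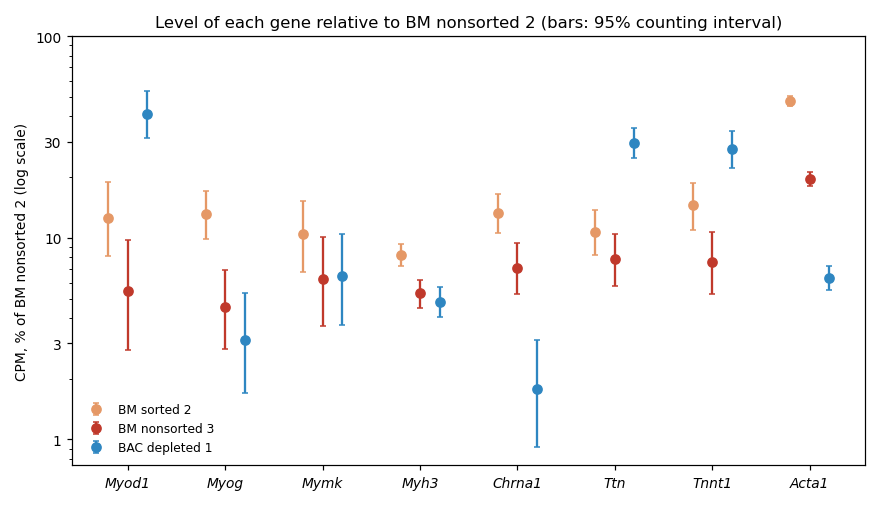
CPM of the 8 tested members as a percentage of BM nonsorted 2 (log axis) in 3 other libraries; bars are 95% counting intervals. In BM sorted 2 and BM nonsorted 3 the 7 genes left of Acta1 lie in narrow bands (8.24% to 14.5% and 4.53% to 7.86%), while in BAC depleted 1 they spread from 1.78% to 41.1%.

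The first comparison asked whether flow sorting took muscle transcripts out of the marrow cultures. Mean levels were lower after sorting for all 8 tested members, and none differed beyond the spread between libraries. Myh3 stood at 2.58 ± 4.43 CPM (SD, n = 3) in BM sorted and 33.4 ± 52.0 in BM nonsorted, and Chrna1 at 1.20 ± 1.44 and 7.84 ± 11.8. In the quasi-likelihood test of edgeR, adjusted by the Benjamini-Hochberg method, 0 of 8 passed (adjusted p of 0.371 to 0.602), against 6.23% of the 15698 genes tested, and 0 of 8 had an unadjusted p under 0.05. The DESeq2 Wald test also called 0. The fitted log2 fold changes (with approximate standard errors, SE) were -3.68 ± 2.21 for Myh3, -2.70 ± 1.28 for Chrna1 and -3.13 ± 1.49 for Ttn, with a median of -3.02 over the members and 0 over all genes. In 0 of the 8 were the libraries of both groups apart, against 28.7% of all genes. Without BM nonsorted 2 the median over the members was 0.03, and the log2 fold changes of Chrna1 (0.21), Myod1 (0.29), Myog (0.69) and Tnnt1 (0.97) had the opposite sign. That setting keeps BM sorted 2, the highest sorted library. With both marrow libraries numbered 2 left out, a setting chosen after seeing the data, the median was -4.16 and 7 of the 8 were negative, from -1.17 (Acta1) through -1.47 (Chrna1) to -7.38 (Myh3), with Tnnt1 at 0.69 and 0 of 8 called (adjusted p of 0.300 for Myh3). In it Myod1, Myog and Mymk had 0 counts in both sorted libraries left, so their fitted values and the median depend on the prior count.

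Unsorted marrow was set against undepleted bone-associated cells to ask which niche carried more muscle transcript. Acta1, Ttn and Chrna1 were higher in BM nonsorted, and no member was lower. Acta1 stood at 69.2 ± 44.7 CPM against 4.82 ± 3.71 (SD, n = 3 each), with a log2 fold change of 3.84 ± 0.82 (adjusted p = 0.00749, edgeR quasi-likelihood). Chrna1 differed by 6.30 ± 1.63 on the log2 scale (adjusted p = 0.0165), from 7.84 ± 11.8 CPM to 0.0953 ± 0.0170, and Ttn by 5.37 ± 1.74 (0.0391). The 3 of 8 tested members compare with 31.7% of all genes called in either direction and 14.9% called higher. Myh3 (adjusted p = 0.0515), Mymk (0.0609) and Myog (0.0669) had 0 counts in all 3 BAC nondepleted libraries and did not pass. Against a floor of 3 counts over that group, mean levels in BM nonsorted were at least 929-fold higher for Myh3, at least 139-fold for Myog and at least 83.9-fold for Mymk. Without BM nonsorted 2 these bounds were 92.9-fold, 10.7-fold and 9.05-fold. Libraries of both groups did not overlap for 6 of the 8, against 56.0% of all genes. The compartments also differ in dissociation, and the labels state a passage only for the marrow. Neither dissociation nor culture can be told apart from the niche.

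The calls of Chrna1 and Ttn rested on few libraries, and that of Acta1 did not. Leaving out any of the 6 libraries kept Acta1 called, with log2 fold changes of 3.33 to 4.42. Without BM nonsorted 2 the adjusted p was 0.0630 for Chrna1 (3.39 ± 1.13) and 0.216 for Ttn (2.60 ± 1.41). Both were also lost without BAC nondepleted 1 (0.0580 and 0.115), 2 (0.0575 and 0.108) or 3 (0.0507 and 0.0943). Tnnt1 changed sign without BM nonsorted 2, to -0.65. Ttn was lost with the replicate number as a block (adjusted p = 0.0760) and with no low-count filter (0.114), and the DESeq2 Wald test called 6 of the 8.

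**Figure D3:**
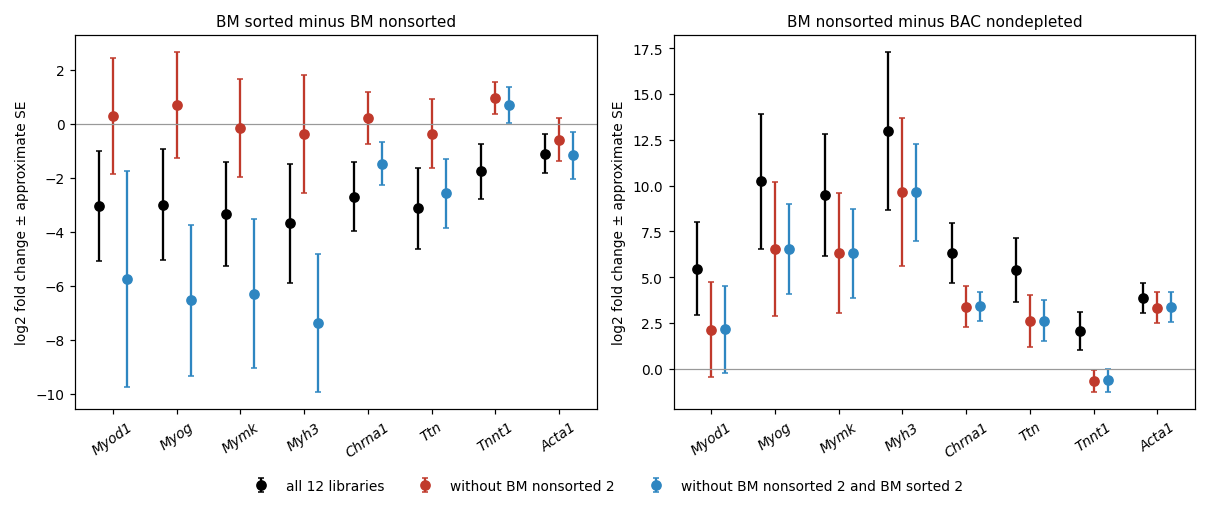
Fitted log2 fold change with approximate SE of the 8 tested members, for sorting (left) and for unsorted marrow against undepleted BAC (right), with all libraries (black), without BM nonsorted 2 (red) and without BM nonsorted 2 and BM sorted 2 (blue). On the left the red points have a median of 0.03 and the blue ones of -4.16, and on the right only Tnnt1 falls below 0 in either setting; fitted values of genes with 0 counts in a group depend on the prior count.

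Magnetic depletion of the BAC gave positive fitted log2 fold changes for all 8 tested members, and 0 of them passed. Myh3, Ttn, Mymk and Myod1 were highest in BAC depleted 1. The counts were 0 of 8 by edgeR (adjusted p of 0.105 to 0.828), against 37.3% of all genes, 1 of 8 at an unadjusted p under 0.05 (Ttn, log2 fold change 3.73 ± 1.67) and 2 by the DESeq2 Wald test (Myh3 and Ttn). Over the members the median log2 fold change was 3.93, beside 0.05 over all genes, and without BAC depleted 1 it was 0.87, with Myod1 at -3.63. When library 2 of both marrow groups was left out of the shared model, a setting chosen after seeing the data, Ttn was called (3.73 ± 1.07, adjusted p = 0.0323). Myh3 stood at 1.60 ± 2.5 CPM after depletion, at least 44.6-fold above the floor of the nondepleted group, and at least 4.47-fold without BAC depleted 1.

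Between the purified groups, only Acta1 was called, and it was higher in the marrow. Its mean was 32.2 ± 17.7 CPM (SD, n = 3) after the sort and 5.68 ± 1.58 after depletion, a log2 fold change of 2.5 ± 0.78 (adjusted p = 0.0233, edgeR quasi-likelihood). That is 1 of 8 members, beside 47.4% of all genes called and 22.9% called higher. The call was lost without BM sorted 2 (adjusted p = 0.0868), BAC depleted 2 (0.0645) or BAC depleted 3 (0.0548), and with no low-count filter (0.0711). For the other 7 the log2 fold changes ran from -1.70 (Myod1) to 2.58 (Chrna1), with adjusted p of 0.162 to 0.880. Comparisons with BM nonsorted and with BM sorted share their libraries with the sorting comparison and are not independent of it.

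The test of the difference between both purification effects (sorting minus depletion) called 0 of 8 members, against 8.06% of all genes. Adjusted p ran from 0.0889 (Ttn) to 0.466 (Acta1), 2 of 8 had an unadjusted p under 0.05, and the DESeq2 Wald test called 2, Myh3 and Ttn.

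The lists of further muscle genes were chosen with earlier results of these data known, so they describe the same libraries and add no independent support. Adult sarcomere genes (32 genes, of which 3 are members) summed to 137, 526 and 95 CPM in BM nonsorted 1, 2 and 3 and to 108, 142 and 71.0 in BM sorted. They summed to 18.7, 24.1 and 21.5 CPM in BAC nondepleted and to 94.2, 39.8 and 35.9 in BAC depleted. BM nonsorted 2 was again the highest, and BM nonsorted 1, 3 and BM sorted 1 exceeded BAC depleted 1. These sums include Acta1, at 75.4, 21.7 and 23 CPM in those libraries and 7 in BAC depleted 1, and the excess rested on it. The members' sum without Acta1 went the same way, with only BM nonsorted 2 and BM sorted 2 above BAC depleted 1. In BM nonsorted against BAC nondepleted 16 of the 24 tested were higher, 0 were lower and 8 were not called, with a median log2 fold change of 4.44 (-0.01 over all genes, of which 31.7% were called and 14.9% higher, the background of each list count in this comparison). Actn2, the Z-disc protein alpha-actinin 2, stood at 4.98 ± 7.39 CPM against 1 count in 3 libraries (adjusted p = 0.0121, and 0.0363 without BM nonsorted 2), and Myh7, the slow myosin heavy chain, at 4.69 ± 6.53 against 0 counts (adjusted p = 0.0210, and 0.0537 without that library). Without BM nonsorted 2 the count of 16 was 5. Of the 7 embryonic and cardiac-type sarcomere genes 5 were higher and 2 not called, and 2 were higher without BM nonsorted 2. Tnni1, the slow troponin I, was among them (7.01 ± 1.72, adjusted p = 0.0132; 3.87 ± 1.10 and 0.0401 without that library).

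After sorting, 0 of the 24 adult sarcomere genes were higher, 1 was lower and 23 were not called (6.23% of all genes were called). The one that was lower, Myoz1, a Z-disc protein, did not have the members' profile, at 0.521 ± 0.0887 CPM before and 0.0504 ± 0.0459 after sorting. On depletion 2 of the 24 were higher, 1 was lower and 21 were not called, where 37.3% of all genes were called. The higher ones were Neb (4.19 ± 0.98, adjusted p = 0.00793), which encodes the thin-filament ruler nebulin, and Actn3, the alpha-actinin of fast fibres (3.69 ± 0.67, 0.00211), and Myoz1 was lower (-3.34 ± 0.65, 0.00299). The count of higher genes was 6 without BM nonsorted 2 and 8 without library 2 of both marrow groups. Neb and Actn3 were also called without BAC depleted 1, at 3.73 and 3.28. Actn3 stood at 21.3 ± 9.11 CPM in BAC depleted and 1.66 ± 0.239 in BAC nondepleted.

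In BM nonsorted against BAC nondepleted 0 of 5 tested fusion genes were called, and 2 of 5 junction genes were higher, Chrna1 and Lrp4 (1 of 5 without BM nonsorted 2; Lrp4 1.56 ± 0.26, adjusted p = 0.00257), a receptor for the nerve signal agrin that bone cells also carry. The myoblast fusion microprotein Mymx had 51 counts in BM nonsorted 2, 5 in BM sorted 2, 4 in BAC depleted 1, 2 in BM nonsorted 3 and 0 elsewhere. Chrng, the fetal receptor subunit, had 176 counts in BM nonsorted 2, and the adult subunit Chrne had 1. These 3 genes, Mymx, Chrng and Chrne, were chosen after their values were seen. Among 8 tested myogenic transcription factor and satellite cell genes, Six4 (1.89 ± 0.17, adjusted p = 0.000189) and Chodl (4.64 ± 0.81, 0.0029) were higher in BM nonsorted, Mef2c was lower (-1.13 ± 0.30, 0.0172) and 5 were not called, and without BM nonsorted 2 the counts were 2 higher and 0 lower. Mef2c was also lower after sorting (-3.85 ± 0.33) and after depletion (-0.97 ± 0.29), where macrophage markers fell too. The part of macrophages in its level was not tested. Calcr, a marker of quiescent satellite cells that the naming rule did not pick, had at most 1 count in any library. Cdh15, of the same list, was detected and its profile was close to that of Myod1 (r = 0.932). In BM nonsorted against BAC nondepleted it was not called (4 ± 1.81, adjusted p = 0.117, edgeR quasi-likelihood).

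Smooth muscle markers did not follow the members. The 8 genes summed to 5023 to 7395 CPM in the 6 marrow libraries and to 486 to 1264 in the 6 BAC libraries, with no overlap, as for Acta1. Of the 8, 7 were higher in BM nonsorted than in BAC nondepleted, also without BM nonsorted 2, led by the smooth muscle actin Actg2 (7.59 ± 0.33, adjusted p = 5.53e-06). The exception in pattern was Des, the intermediate filament desmin shared by all muscle types, named after its values were seen. It had 2032 counts in BM nonsorted 2, against 253 and 198 in BM nonsorted 1 and 3 and 476 in BM sorted 2. Cardiac markers summed to 0.858 to 5.79 CPM over all libraries, endothelial markers to 0.292 to 8.32, and Schwann cell and nerve markers to 2.05 to 11.8 outside BAC depleted and 22.3 to 147 in BAC depleted. The part of smooth muscle cells in the Acta1 difference was not tested.

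**Figure D4:**
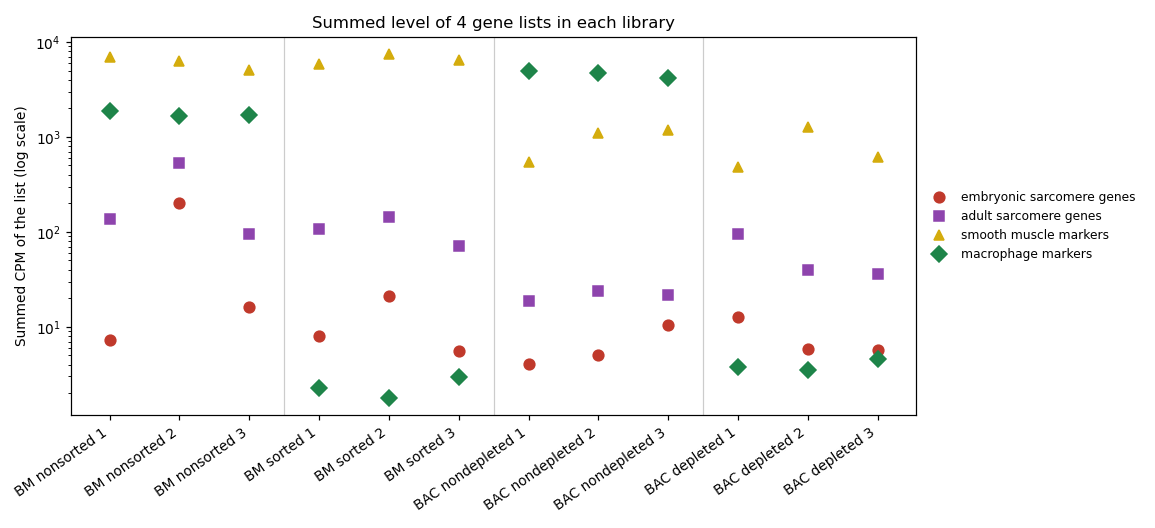
Summed CPM (log axis) of 4 gene lists in each of the 12 libraries. Embryonic sarcomere genes peak in BM nonsorted 2 at 201 CPM, against 4.06 to 21.1 in the other 11 libraries, while smooth muscle markers separate marrow from BAC and macrophage markers separate unpurified from purified libraries.

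Across the 12 libraries, Myod1, Myog, Myh3, Ttn, Chrna1 and Mymk were correlated with one another in log2 CPM (Pearson's r of 0.80 to 0.98 over 15 pairs), Tnnt1 with those 6 at 0.63 to 0.81, and Acta1 with the other 7 at 0.29 to 0.79. These values describe the 12 libraries, and the genes of a pair share library and depth. The non-member genes closest in profile were muscle genes for 7 members. Cacna1s, the voltage sensor of muscle, was among the closest to Myod1, Myog, Myh3 and Mymk (r of 0.941 to 0.984). The fast myosin light chain Myl1 was closest to Ttn (0.986), the sarcoplasmic calcium pump Atp2a1 to Tnnt1 (0.851), and the cardiac actin Actc1 to Chrna1 (0.957). For Acta1 the closest were Ccdc125 (0.954), the cell-cycle inhibitor Cdkn1a (0.926) and the serotonin receptor Htr1b (0.925), none of them a sarcomere gene.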

How the data were processed

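The 12 libraries (total RNA, low-input kit) were deposited as raw read counts per gene, which the authors made with STAR 2.7.9a and featureCounts of Subread 2.0.1 on GRCm39, with MultiQC 1.7, per the submitters' processing notes. The sources used here do not give the annotation release or strand setting, and overlapping and near-identical genes are uncertain. Each column matched 1 sample title. The analysis used edgeR 4.0.16 (R 4.3.3) with TMM scaling, filterByExpr on the groups (15698 genes, among them 8 of the 10 members), and one model over all 12 libraries with a mean per group, 8 residual degrees of freedom and robust quasi-likelihood F tests. The approximate SE is the log2 fold change over the root of F. P-values were adjusted over all genes tested by Benjamini-Hochberg and called under 0.05. A member that passed the filter did so through the groups where it was high, so counts over the 8 are descriptions. The 5 contrasts, the lists and the members were chosen with earlier results of these data known. Names follow a rule: all members, the most abundant and the most changed called genes of each list, and the 3 genes of closest profile per member (log2 CPM, prior count 2). Mymx, Chrng, Chrne, Des and Calcr were named outside it. Ratios between libraries carry exact binomial intervals. Alternatives were other scalings, DESeq2 1.42.0, other filters, subsets, a replicate block and leaving out libraries. The test was checked on simulated counts.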

Additional observations from a re-analysis of the deposited data

How the results depend on the processing

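Scaling by DESeq2 size factors or upper quartiles kept every count of called members and every sign. A stricter filter (CPM of at least 1 in 3 libraries) did so for the members it kept. Myod1, Myog and Mymk did not pass it and have no sign there. With no low-count filter, 0 members were called between the purified groups. Fitting only the groups compared gave 3459 genes called for depletion (5863 with all groups). The DESeq2 Wald test called 2 members for depletion, 6 for unsorted marrow against undepleted BAC, and 2 members and 2446 genes (1266 by edgeR) for the difference of effects. Number 1 does not pair the BAC libraries. Xist and Ddx3y had 43406 and 0 counts in BAC depleted 1, and 2 and 4111 in BAC nondepleted 1, so their sources differed in sex. For the other numbers pairing stayed undecided (correlations of deviations from -0.22 to 0.24 over all numbers). BM sorted 2 (0.21), BAC depleted 1 (0.24) and BAC depleted 3 (0.07) correlated best with their own number, and BM sorted 1, BM sorted 3 and BAC depleted 2 did not. The best match of BAC depleted 1 was thus with a library of the other sex. With 3 libraries per group, such correlations can neither show nor exclude a shared culture for the other numbers. With the replicate number as a block, 808 genes were called for the difference, and between the purified groups Myog (-0.67), Myh3 (-1.93) and Mymk (-1.13) changed sign.

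Leaving out single libraries gave these ranges of log2 fold change where a sign changed. For sorting they were -9.07 to 0.29 (Myod1), -10.19 to 0.69 (Myog), -2.29 to 0.97 (Tnnt1) and -4.34 to 0.21 (Chrna1). For depletion they were -0.27 to 0.81 (Acta1) and -3.63 to 5.31 (Myod1), and for unsorted marrow against undepleted BAC -0.65 to 2.61 (Tnnt1). Between the purified groups they were -5.39 to 4.74 (Myog), -6.35 to 4.03 (Myh3), -5.71 to 2.83 (Mymk), -7.76 to 6.06 (Myod1), -3.69 to 0.59 (Ttn) and -0.86 to 0.23 (Tnnt1). For the difference they were -13.19 to 0.59 (Myod1) and -3.11 to 0.15 (Tnnt1). Members called ran from 1 to 4 for unsorted marrow against undepleted BAC and from 0 to 1 between the purified groups. Genes called ran from 2993 (without BM nonsorted 2) to 6008 for the former (4980 with all) and from 442 (without BM sorted 3) to 1619 for the difference.

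A pair of settings was chosen after seeing the data. Without library 2 of both marrow groups, Tnnt1 was 0.69 for sorting and -0.64 for unsorted marrow against undepleted BAC, where 2147 genes were called. Between the purified groups 0 members were called, with Myog at -5.37, Myh3 at -6.34 and Mymk at -5.69, and 174 genes were called for the difference. Leaving out BAC depleted 1 as well, 1 member was called for sorting (Myh3), and Tnnt1 stood again at 0.69 and -0.64. Depletion gave -3.61 (Myod1) and -0.01 (Chrna1), and 2985 genes were called for unsorted marrow against undepleted BAC. Between the purified groups 0 members were called, with Myod1 at 0, Myog at -2.46, Myh3 at -2.97 and Mymk at -3.30. For the difference 242 genes were called and Tnnt1 stood at 0.61. The cause of these changes was not tested beyond the fewer libraries of each setting. With few or 0 counts in most libraries, fold changes of Myod1, Myog and Mymk are imprecise.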
